A study of Mus musculus with 10 samples.

Results

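Open chromatin in Th17 cells that lacked pyruvate dehydrogenase but were given acetate was compared with open chromatin in untreated control Th17 cells, to ask what stays different after acetate. The values came from ATAC-seq, in which a transposase cuts DNA where chromatin is accessible, and the comparison took 5 of the 10 libraries of the series and all 39657 sites of its table. The KO acetate libraries (n = 2) came from T cells of PDHfl/fl CD4 Cre+ mice that had been cultured with 10 mM sodium acetate. They were set against WT untreated (n = 3), from PDHfl/fl mice without Cre and with no acetate. Sample titles spell the allele PHD-fl/fl, while the culture protocol writes PDHfl/fl and the genotype label PDH knockout. KO untreated (n = 3) and WT acetate (n = 2, 10 mM) were used beside them to place each site. In all groups naive CD4+ T cells from spleen and lymph nodes were cultured for 3 days with plate-bound anti-CD3, anti-CD28, IL-6, TGFβ and anti-IFNγ, the conditions that drive Th17 differentiation. CD4-Cre deletes a floxed gene in T cells during their development in the thymus, and WT mice carried no Cre. The labels do not name the floxed gene, the age or the sex of the mice, and nothing in them says that libraries of a group came from separate animals. The p-values below therefore measure only the spread between these libraries, which may be technical. The fit shares that spread among sites of similar mean signal, so a p-value reflects the scatter of a site's own libraries only in part.

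Th17 cells are helper T cells that make interleukin-17 and defend mucosal surfaces, and they also drive several autoimmune diseases. Pyruvate dehydrogenase is the mitochondrial complex that turns pyruvate from glycolysis into acetyl-CoA, which enters the TCA cycle as citrate. Citrate that leaves the mitochondria is split by ATP citrate lyase (Acly) into acetyl-CoA for lipid synthesis and for the acetylation of histones, a mark of open chromatin. Acetate bypasses the complex, because Acss2 joins it directly to coenzyme A.

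The KO acetate libraries held 11047781 and 5640663 reads in sites, against 9034127, 9033536 and 9623689 for WT untreated. Each value is the authors' signal: the read number of a site over a scaling factor of its library. How that factor was set is not given in the sources used. A shift shared by all sites rests on those factors, so each difference was tested on 2 scales, the values as deposited and the values after each library had been shifted to a common median (median-scaled). Column names start with ATAC1 or ATAC2. Both KO acetate libraries, both WT acetate libraries and WT untreated 4 carry ATAC2, while WT untreated 1 and 2 and all KO untreated libraries carry ATAC1. The sites are numbered as differential sites, so the authors are taken to have chosen them from these same libraries. A gene named for a site is the nearest protein-coding gene within 50 kb, and the site is not known to regulate it.

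Of the 39657 sites, 6359 shared at least 1 base with the promoter of a gene, and 18 of these were called higher and 53 lower in KO acetate than in WT untreated on both scales (limma, adjusted p under 0.05), where 2.01% and 4.18% of all sites were. The sequences are those of the 3 largest differences in each direction among called sites that shared at least 100 bases with the promoter of a protein-coding gene, had at least the median signal and had groups that did not overlap, as at 34.5% of all sites. Each is given by the 250 bases before the gene's start (RefSeq, GRCm38.p6, 5′ to 3′ on the gene's strand), since there the differing site lies on the promoter itself. The first 3 were higher in KO acetate, and were the only higher sites that passed these filters, where 24 lower sites did. They belong to Fam135a, to Plek, which encodes pleckstrin, a protein kinase C substrate of blood cells, and to Svip, an inhibitor of protein degradation at the endoplasmic reticulum.
Fam135a: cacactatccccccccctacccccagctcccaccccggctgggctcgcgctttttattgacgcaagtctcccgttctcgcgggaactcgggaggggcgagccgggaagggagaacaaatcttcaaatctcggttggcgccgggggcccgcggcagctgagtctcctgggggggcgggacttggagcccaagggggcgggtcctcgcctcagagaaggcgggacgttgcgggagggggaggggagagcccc
Plek: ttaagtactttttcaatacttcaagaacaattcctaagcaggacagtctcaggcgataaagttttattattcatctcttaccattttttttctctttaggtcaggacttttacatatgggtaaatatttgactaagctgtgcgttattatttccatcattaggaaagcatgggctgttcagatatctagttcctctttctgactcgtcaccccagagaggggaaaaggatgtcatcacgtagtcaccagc
Svip: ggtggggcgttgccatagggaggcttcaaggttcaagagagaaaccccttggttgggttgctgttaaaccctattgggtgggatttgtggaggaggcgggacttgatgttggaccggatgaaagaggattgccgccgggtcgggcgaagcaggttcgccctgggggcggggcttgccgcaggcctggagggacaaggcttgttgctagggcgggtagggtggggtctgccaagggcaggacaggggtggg
The other 3 were lower in KO acetate. They belong to Cd101, a surface protein of T cells and myeloid cells, and to the interferon-inducible GTPases Igtp and Gbp5, which attack vacuoles that hold microbes. Capitals mark motif matches.
Cd101: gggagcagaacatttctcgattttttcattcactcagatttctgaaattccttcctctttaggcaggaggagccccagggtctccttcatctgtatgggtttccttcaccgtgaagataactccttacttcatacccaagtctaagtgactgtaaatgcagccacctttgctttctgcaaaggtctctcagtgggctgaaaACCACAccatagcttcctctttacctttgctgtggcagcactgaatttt
Igtp: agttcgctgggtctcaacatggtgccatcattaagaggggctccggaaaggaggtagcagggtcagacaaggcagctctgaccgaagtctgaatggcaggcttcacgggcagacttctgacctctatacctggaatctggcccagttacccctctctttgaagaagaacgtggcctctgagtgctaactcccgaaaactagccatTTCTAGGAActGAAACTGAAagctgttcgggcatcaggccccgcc
Gbp5: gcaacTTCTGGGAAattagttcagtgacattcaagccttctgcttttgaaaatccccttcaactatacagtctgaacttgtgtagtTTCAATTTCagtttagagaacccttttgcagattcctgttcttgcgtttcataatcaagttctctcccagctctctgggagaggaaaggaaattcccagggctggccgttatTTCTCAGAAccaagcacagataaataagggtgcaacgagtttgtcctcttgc

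The motifs searched on both strands were AP-1 (TGANTCA), interferon response (GAAANNGAA), STAT (TTCNNNGAA), ETS (CCGGAAG), RUNX (TGTGGT) and CRE (TGACGTCA). The promoters of Fam135a, Plek and Svip held none of these letters in the window. Counting from 1 at the 5′ end, Igtp held a STAT match at position 206 and an interferon response match at 217, both inside its site. Gbp5 held STAT matches at 6 and 199 and an interferon response match at 87, and the match at 199 lay outside its site. Cd101 held a RUNX match at 202. No matches overlapped. Of 32851 mouse promoters of the same length, 7.13% hold the interferon response motif, 7.02% the STAT motif and 14.05% the RUNX motif. The shares were 6.75% for AP-1, 6.91% for ETS and 1.55% for CRE. A match describes letters and does not show that a factor binds.

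At the Igtp promoter site (chr11:58199437-58199637) signal was 199 and 124 in KO acetate, 176, 205 and 253 in KO untreated, 243 and 193 in WT acetate, and 452, 325 and 336 in WT untreated. Both KO acetate libraries lay below all 3 WT untreated libraries, with a log2 difference of -1.22 ± 0.24 (SE, limma, adjusted p = 0.000152). Without KO acetate 3 the adjusted p was 0.129, and in the other fits without 1 library it stayed under 0.05. At the Gbp5 promoter site (chr3:142496656-142496856) signal was 179.9 and 184 in KO acetate, 251, 258 and 333 in KO untreated, 320.0 and 290.0 in WT acetate, and 452, 349.6 and 397 in WT untreated. The groups did not overlap and differed by -1.12 ± 0.23 (adjusted p = 0.000384). The Cd101 promoter site had signal of 128 and 131 in KO acetate, 183, 186 and 202 in KO untreated, 123 and 137 in WT acetate, and 457, 362 and 199 in WT untreated. Its difference of -1.30 (adjusted p = 8.63e-05) shrank to -0.62 within the ATAC2 libraries (adjusted p = 0.214), where WT untreated 4, the lowest of the WT untreated values, is the single WT untreated library. At the Plek promoter site signal was 432 and 367 in KO acetate, 96.5, 120.5 and 174 in KO untreated, 326 and 397 in WT acetate, and 221, 198 and 269 in WT untreated (log2 0.81, adjusted p = 0.0194). The promoter sites of Fam135a and Svip differed by 0.81 and 0.72 (adjusted p = 0.0274 and 0.043). Within the ATAC2 libraries none of the 3 higher promoter sites was called, with adjusted p of 0.238 at Plek, 0.81 at Fam135a and 0.568 at Svip. Each of the 3 also lost its call without KO acetate 1, without KO acetate 3 or without WT untreated 1, with the adjusted p reaching 0.248, 0.236 and 0.423.

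Over the whole table the difference was modest. Signal summed over nuclear sites was 9.40 and 8.48 M in KO acetate (mean 8.94 ± 0.649, SD) and 11.2, 9.02 and 10.6 M in WT untreated (10.3 ± 1.15), a ratio of 0.868. KO acetate 1 lay within the WT untreated range, and the exact permutation p was 0.3, where 10 splits allow no less than 0.1. KO untreated libraries averaged 6.19 ± 0.724 M (n = 3) and WT acetate libraries 10.0 ± 1.00 M (n = 2). The 2 mitochondrial sites held 0.281 ± 0.0752% of all signal in KO acetate, 1.68 ± 0.444% in KO untreated, 0.332% in WT acetate and 0.390 ± 0.237% in WT untreated (KO acetate against WT untreated, exact permutation p = 0.9). The median log2 difference per site between KO acetate and WT untreated was -0.17 as deposited and -0.02 median-scaled. In these bulk samples fewer cells with an open site and less opening per cell cannot be told apart.

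As deposited, 827 of the 39657 sites (2.09%) were called higher and 2277 (5.74%) lower in KO acetate, at an adjusted p under 0.05 (limma). Median-scaled, 1601 (4.04%) were higher and 1699 (4.28%) lower, so the share of calls that were higher was 26.6% as deposited, 48.5% median-scaled and 52.4% with cyclic loess. On both scales together 796 sites (2.01%) were higher and 1658 (4.18%) lower, 7.83% of sites being called in either direction as deposited. These counts hung on single libraries. Without KO acetate 1 they were 59 higher and 104 lower, without KO acetate 3 they were 197 and 288, without WT untreated 1 they were 329 and 370, and without WT untreated 4 they were 1392 and 4042. A core of 45 sites higher (0.113%) and 57 lower (0.144%) was called on both scales with all libraries and without any of the 5 in turn. Of these, 43 (0.108%) and 44 (0.111%) were also called within the ATAC2 libraries alone. There WT untreated 4 is the single WT untreated library and is assumed to vary like the 2 KO acetate and 2 WT acetate libraries, so calls made or lost within ATAC2 rest on it.

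**Figure D1:**
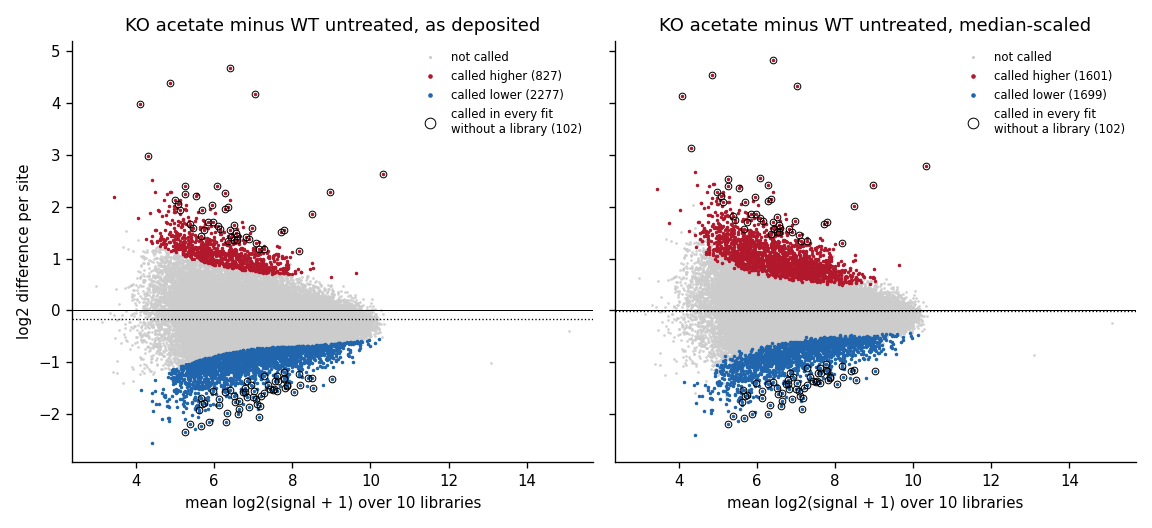
Log2 difference in signal between KO acetate and WT untreated at each of 39657 sites (vertical axis) against the site's mean log2 signal over 10 libraries (horizontal axis), as deposited (left) and median-scaled (right). Coloured points are called sites, open circles the 102 core sites, and the dotted line the median, which lies at -0.17 as deposited and at -0.02 median-scaled.

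The higher and the lower sites both lay at gene ends less often than all sites, and differed in degree and in signal level. Of the 796 higher ones 5.78% lay within 1 kb of a gene end, against 8.44% of the 1658 lower ones and 24.8% of all sites, and 22.4% of the higher ones had no gene within 50 kb, against 10.7% of the lower ones and 8.10% of all. When all sites were split into 5 equal groups by mean signal, the 796 higher sites numbered 306 in the weakest group and 8 in the strongest, and the 1658 lower sites numbered 268 in the weakest and 201 in the strongest. At the 796 sites the median signal was 125 and 106 in KO acetate, 49.1, 63.5 and 72.1 in KO untreated, 111 and 111 in WT acetate, and 49.9, 50.2 and 55.3 in WT untreated. At the 1658 sites it was 98.0 and 90.5 in KO acetate, 102, 99.0 and 123 in KO untreated, 111 and 108 in WT acetate, and 233, 188 and 161 in WT untreated. WT acetate libraries stood near KO acetate libraries in both sets. The sets were chosen by the difference of KO acetate from WT untreated, and WT acetate also shares the column prefix ATAC2 with KO acetate. What places WT acetate there was not tested. The contrast of KO acetate with WT untreated changes genotype and acetate at once, and these cannot be told apart in it.

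**Figure D2:**
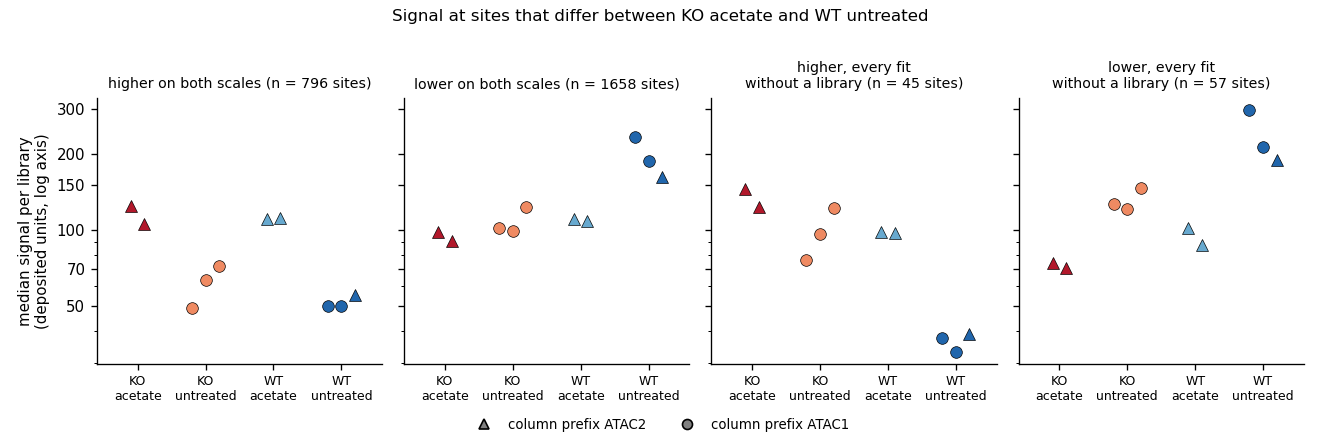
Median signal of each library (points, log axis, deposited units) over the sites called on both scales and over the core sites, higher and lower in KO acetate than in WT untreated, by group. Triangles are libraries with the column prefix ATAC2 and circles those with ATAC1; at the 57 core lower sites the KO acetate medians were 74.2 and 70.9 and the WT untreated medians 297, 213 and 189.

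Set against the WT cells that received the same acetate, KO acetate cells were called different at few sites. Of 39657 sites, 9 were called higher and 0 lower as deposited (0.0227% and 0%, limma, adjusted p under 0.05). Both groups had 2 libraries, and WT acetate 1 held the fewest reads in sites of the series (3500172, with 57 at the median site). Few calls therefore do not show that few sites differed. Of the 9, 7 lay at Cd4 and Lag3 on chromosome 6 and 2 in a stretch of chromosome 3 between Mbnl1 and P2ry1. Over the whole table the median absolute log2 distance between libraries, median-scaled, was 0.193 between the 2 KO acetate libraries. It was 0.155 to 0.224 between KO acetate and WT acetate, 0.300 to 0.354 between KO acetate and WT untreated, and 0.178 to 0.385 among the WT untreated libraries themselves.

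The largest rises lay at Cd4, which encodes the co-receptor of helper T cells. At an intragenic site (chr6:124882242-124882442) signal was 610.4 and 559.6 in KO acetate, 392, 384 and 544 in KO untreated, 36.9 and 40.0 in WT acetate, and 33.7, 33.2 and 27.6 in WT untreated. Both KO groups lay far above both WT groups, and the difference from WT untreated was 4.18 ± 0.25 on the log2 scale (adjusted p = 1.74e-34). A neighbouring site (chr6:124879835-124880035) had signal of 498 and 338 in KO acetate, 403, 374 and 499 in KO untreated, 24.6 and 14.04 in WT acetate, and 28.7, 20.1 and 5.53 in WT untreated, a log2 difference of 4.68 ± 0.51 (adjusted p = 0.000184). The strongest site of the gene (chr6:124885264-124885464) had signal of 4398 and 3543 in KO acetate, 1963, 1816 and 2458 in KO untreated, 572 and 568 in WT acetate, and 706, 561 and 660.1 in WT untreated. It was 6.17-fold higher than in WT untreated (log2 2.62 ± 0.18, adjusted p = 2.81e-28) and 2.79 higher on the log2 scale than in WT acetate.

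Lag3, the next gene along, encodes an inhibitory receptor that binds MHC class II. Its site at chr6:124900561-124900761 had signal of 1359.8 and 1278 in KO acetate, 640.0, 637 and 849 in KO untreated, 268 and 318 in WT acetate, and 272, 264 and 278 in WT untreated (log2 2.28 ± 0.22, adjusted p = 1.42e-16). A second Lag3 site (chr6:124911638-124911838) was also called, at 740.0 and 504 in KO acetate, 130.0, 174 and 157 in KO untreated, 775 and 649 in WT acetate, and 325, 261 and 499.7 in WT untreated (log2 0.81, adjusted p = 0.017). That site differed from the others: it was high in both acetate groups and low in KO untreated, and within the ATAC2 libraries its difference was 0.29 (adjusted p = 0.552). It was not called without KO acetate 1, WT untreated 1 or WT untreated 2 either, with an adjusted p of up to 0.398. In all, 8 of the 20 sites within 50 kb of Cd4 were higher and 0 lower, where 2.09% of all sites were higher, and 7 of the 8 were in the core, which held 0.113% of all sites as higher. The 8 spanned 32.0 kb. The other 12 had a median log2 difference of -0.12 and none was called. CD4-Cre transgenes are built with Cd4 regulatory sequence, and reads from a transgene and from the endogenous gene cannot be told apart in these values.

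On chromosome 3, 19 sites lay over 674 kb from Mbnl1, which encodes an RNA splicing regulator, to P2ry1, a purine receptor. All 19 had a log2 difference above 0 in KO acetate against WT untreated, with a median of 0.67 as deposited and 0.82 median-scaled. Of them 5 were called higher and 3 belonged to the core, where 2.09% and 0.113% of all sites were. The stretch was bounded as an unbroken run of sites called higher in KO untreated, so all 19 were called higher there by construction (median 0.99). Both contrasts use the same WT untreated libraries, so that choice also favours differences above 0 in KO acetate. The most changed site (chr3:60795381-60795581) had signal of 123 and 75.4 in KO acetate, 28.5, 19.6 and 22.5 in KO untreated, 9.23 and 5.62 in WT acetate, and 4.99, 6.03 and 4.42 in WT untreated. Every KO library exceeded every WT library there, and the log2 difference was 3.99 ± 0.48 (adjusted p = 8.97e-11). At the called Mbnl1 site (chr3:60441954-60442154) signal was 207 and 207 in KO acetate, 144, 194 and 208 in KO untreated, 117 and 129 in WT acetate, and 84.9, 87.4 and 99.5 in WT untreated (log2 1.19 ± 0.25, adjusted p = 0.000462). This stretch was looked at because earlier results of these data had shown it, so these counts describe it and support nothing.

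**Figure D3:**
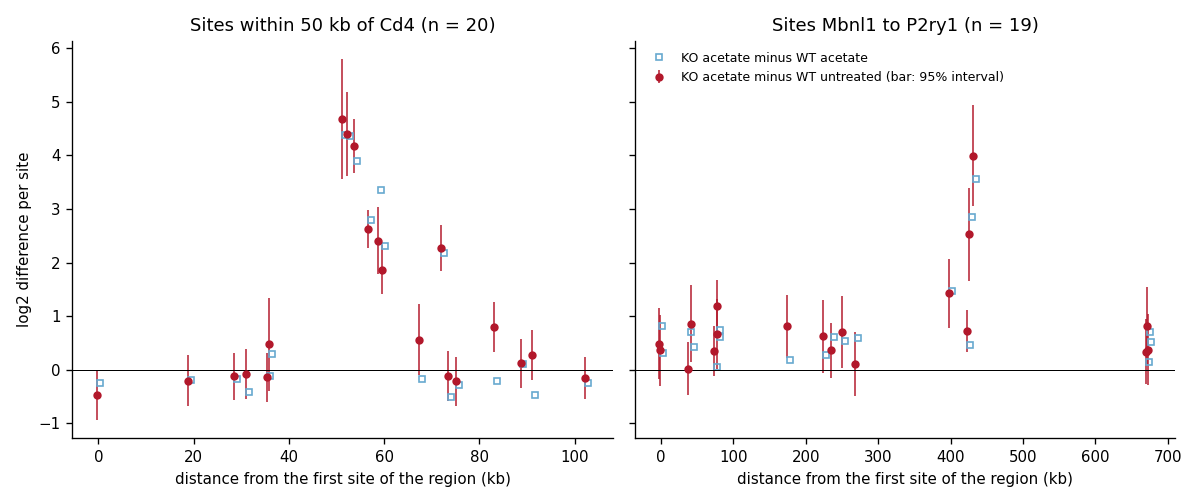
Log2 difference per site (vertical axis) for KO acetate minus WT untreated (filled circles, bars give 95% intervals) and for KO acetate minus WT acetate (open squares), against distance in kb from the first site of the region. Left, 20 sites within 50 kb of Cd4, of which 8 were higher than in WT untreated; right, 19 sites of the chromosome 3 stretch, of which 5 were higher.

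Other sites that were higher in KO acetate lay near Batf, Cd70, Il2 and Fhod3. Batf, an AP-1 family transcription factor that opens chromatin for the Th17 programme, had a site (chr12:85664336-85664536) with signal of 126 and 95.03 in KO acetate, 114, 189 and 218 in KO untreated, 129 and 116 in WT acetate, and 45.0, 30.1 and 29.9 in WT untreated. WT untreated stood alone at the low end, and the log2 difference was 1.64 ± 0.28 (adjusted p = 7.5e-06). This site was in the core, while the other 2 sites of Batf were not called. Cd70, the ligand of the co-stimulatory receptor CD27, had a site (chr17:57135093-57135293) with signal of 388 and 318 in KO acetate, 155, 213 and 259 in KO untreated, 271 and 312 in WT acetate, and 107, 113 and 153 in WT untreated (log2 1.51 ± 0.24, adjusted p = 1.92e-06). It belonged to the core too.

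Il2 encodes the growth factor that activated T cells make for themselves. Its gene-end site (chr3:37121125-37121325) had signal of 75.9 and 57.3 in KO acetate, 20.3, 33.6 and 26.0 in KO untreated, 30.8 and 60.4 in WT acetate, and 9.99, 9.04 and 22.1 in WT untreated. KO acetate lay above all libraries but WT acetate 2, and the log2 difference from WT untreated was 2.29 ± 0.40 (adjusted p = 1.49e-05), although the site was not in the core. Fhod3, which encodes an actin-organising formin, had signal of 335 and 281 in KO acetate, 221, 312 and 342 in KO untreated, 354 and 295 in WT acetate, and 111, 105 and 95.1 in WT untreated (log2 1.55, adjusted p = 7.64e-07). At this core site WT untreated was low and the other 3 groups overlapped.

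The rule for the largest rises also named Clip4 (log2 1.32), Atp8b1 (1.25), a lipid flippase, Nav1 (1.21), Slc24a4 (1.18) and Pnkd (1.15). These were called on both scales, but within the ATAC2 libraries alone their adjusted p lay between 0.0564 and 0.0877. Core sites singled out after their values had been seen lay near Mitf, a basic helix-loop-helix factor (log2 1.55), Etv4, an ETS factor (1.71), Pdgfa, a growth factor (1.43), Inhbb, an activin subunit (2.39), and Cxcl5, a neutrophil attractant (2.14). The Mitf site had signal of 128 and 118 in KO acetate, 87.7, 119.6 and 167 in KO untreated, 76.9 and 119 in WT acetate, and 40.0, 45.2 and 38.7 in WT untreated.

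Some of the higher sites were low in KO untreated. Nab1 encodes a co-repressor of EGR transcription factors, and its site (chr1:52421710-52421910) had signal of 146 and 149 in KO acetate, 15.9, 23.4 and 21.3 in KO untreated, 138 and 146 in WT acetate, and 37.5, 37.2 and 63.0 in WT untreated. KO acetate was higher than WT untreated (log2 1.71 ± 0.31, adjusted p = 3.95e-05), whereas KO untreated was lower than WT untreated as deposited (-1.12, adjusted p = 0.000224), as were 89.6% of all sites. Tns1, which encodes the focal adhesion protein tensin, was also lowest in KO untreated, at 171 and 167 in KO acetate, 25.8, 29.9 and 34.3 in KO untreated, 255 and 199 in WT acetate, and 78.7, 68.3 and 55.3 in WT untreated (log2 1.33 against WT untreated, adjusted p = 0.000471). Median-scaled, neither the Nab1 nor the Tns1 site was called lower in KO untreated. Both were core sites, also named after their values had been seen.

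Of the 1658 sites that were lower in KO acetate on both scales, 55.2% were intragenic and away from gene ends, where 42.4% of all sites were. Mkln1, which encodes muskelin, a part of a ubiquitin ligase complex, held the largest fall named by the rule. Its site (chr6:31489986-31490186) had signal of 60.5 and 73.9 in KO acetate, 162, 145 and 189 in KO untreated, 95.4 and 75.1 in WT acetate, and 338, 305 and 214 in WT untreated. All libraries of the other groups lay above both KO acetate libraries, and the log2 difference from WT untreated was -2.05 ± 0.25 (adjusted p = 2.23e-10). The other sites so named lay near Vrk3 (log2 -1.90), Dnah8 (-1.84), Ccm2 (-1.64), Kctd19 (-1.59), Srp9 (-1.57), Emsy (-1.56), Gm52008 (-1.54), Gbp8 (-1.52) and H2bc6 (-1.51). All 10 but the Vrk3 site belonged to the core. At Srp9, which encodes a subunit of the signal recognition particle, signal was 185 and 137 in KO acetate, 280.2, 245 and 297 in KO untreated, 188 and 149.5 in WT acetate, and 559, 474 and 404 in WT untreated. At H2bc6, a histone H2B gene, it was 101 and 142 in KO acetate, 137, 137 and 163 in KO untreated, 166 and 155 in WT acetate, and 391, 324 and 318 in WT untreated. WT untreated was the highest group at both sites, and its libraries overlapped with none of the others.

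Other lower sites lay near Rptor, Cdk6 and Bcl2. Rptor encodes raptor, the scaffold of the nutrient-sensing kinase complex mTORC1, and its site (chr11:119775437-119775637), a core site named after its values had been seen, had signal of 43.5 and 45.3 in KO acetate, 65.8, 66.3 and 78.0 in KO untreated, 58.5 and 47.0 in WT acetate, and 189, 161 and 189 in WT untreated (log2 -1.99 ± 0.28, adjusted p = 5.88e-08). Cdk6, a kinase that starts the cell cycle, had a core site (chr5:3461051-3461251) with signal of 237 and 201 in KO acetate, 321, 329.7 and 384 in KO untreated, 434 and 283 in WT acetate, and 604, 543 and 473 in WT untreated (log2 -1.30 ± 0.23, adjusted p = 2.38e-05). Bcl2, the founding inhibitor of apoptosis, had a site (chr1:106607016-106607216) with signal of 173 and 214 in KO acetate, 308, 334 and 363 in KO untreated, 289 and 270.3 in WT acetate, and 657, 569 and 406 in WT untreated. KO acetate was the lowest group at Cdk6 and Bcl2, and the Bcl2 difference was -1.46 ± 0.23 (adjusted p = 1.67e-06), though that site was not in the core. Birc3, an inhibitor of apoptosis downstream of TNF receptors, Bptf, a chromatin remodeller subunit, and Fnip1, a regulator of AMPK signalling, had core sites with differences of -1.36, -1.44 and -1.23.

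**Figure D4:**
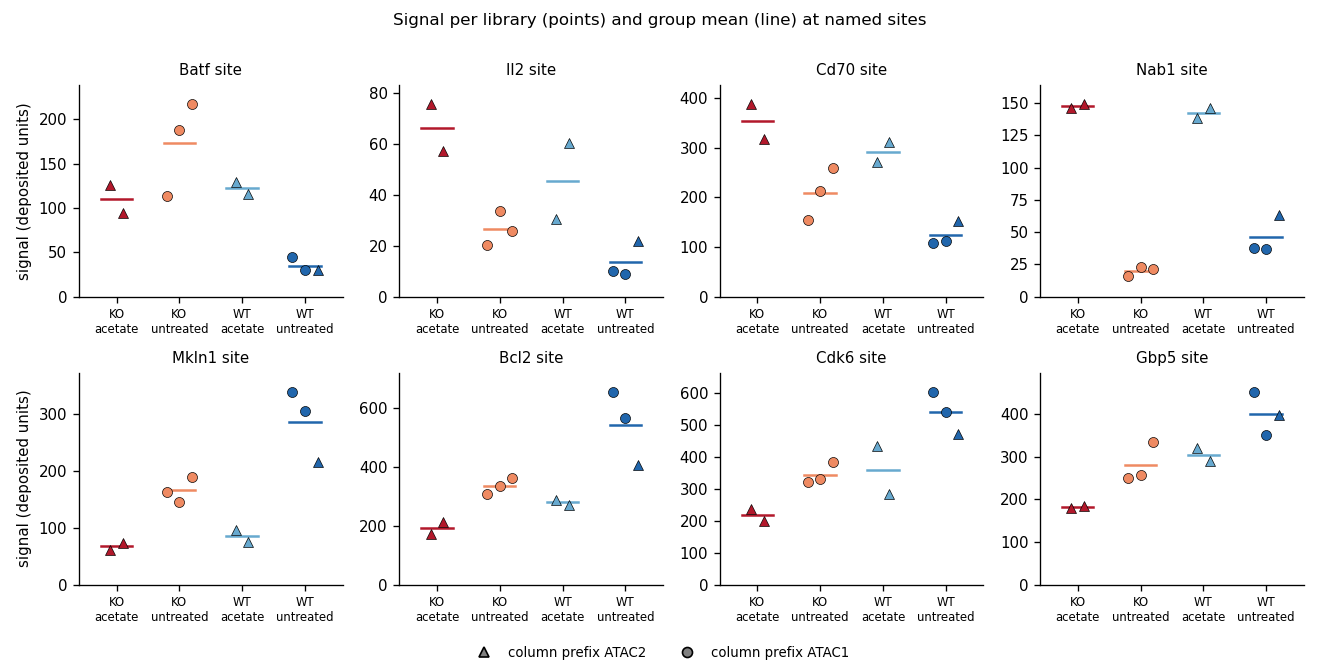
Signal in deposited units (vertical axis, from 0) at 8 sites in each library (points) with the group mean (line), for KO acetate, KO untreated, WT acetate and WT untreated. The upper row shows sites higher in KO acetate than in WT untreated (Batf, Il2, Cd70, Nab1) and the lower row sites that were lower (Mkln1, Bcl2, Cdk6, Gbp5); triangles are ATAC2 and circles ATAC1 libraries.

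WT untreated 4, the single ATAC2 library of its group, was the WT untreated library nearest to KO acetate at 1198 of the 1658 lower sites (72.3%) and at 436 of the 796 higher ones (54.8%). Some WT untreated library must be nearest at each site, and no share over all sites is given beside these. The shares therefore cannot say whether WT untreated 4 stands out. Within the ATAC2 libraries, 109 (6.57%) of the lower and 300 (37.7%) of the higher sites were still called in the same direction.

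The next question was which differences of untreated KO cells persisted under acetate. Both contrasts use the same WT untreated libraries, so their counts are not independent. In KO untreated, 3597 sites were higher and 35545 lower than in WT untreated as deposited (9.07% and 89.6% of sites), and 3707 and 1776 median-scaled (9.35% and 4.48%). As deposited, 483 of the 3597 (13.4%) stayed higher in KO acetate and 2151 of the 35545 (6.05%) stayed lower. Of all sites, 2.09% were called higher and 5.74% lower in KO acetate on that scale. Median-scaled, 714 of 3707 (19.3%) stayed higher and 86 of 1776 (4.84%) stayed lower, where 4.04% and 4.28% of all sites were called. The count of persisting falls thus depended on the scale. On both scales together, 465 of 3597 sites (12.9%) stayed higher and 82 of 1776 (4.62%) stayed lower, where 2.01% and 4.18% of all sites were called. The shares that stayed lower were therefore near those over all sites, and do not mark the falls of KO untreated as a persisting set. A further 29 of the 3597 and 50 of the 1776 were called in the opposite direction in KO acetate, and 3103 and 1644 were not called.

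At the 3597 sites that untreated KO cells held higher, the median signal was 48.6 and 43.7 in KO acetate, 70.2, 80.3 and 99.3 in KO untreated, 43.1 and 43.5 in WT acetate, and 36.2, 37.2 and 34.3 in WT untreated. KO acetate stood near WT acetate, above WT untreated and below KO untreated. These sites were chosen for KO untreated lying above WT untreated, as the 1776 sites below were for the reverse. All KO untreated libraries carry ATAC1 and both KO acetate libraries ATAC2, so acetate and column prefix cannot be told apart between those groups. The median log2 difference from WT untreated was 0.26 for KO acetate and 1.11 for KO untreated as deposited, and 0.41 and 1.86 median-scaled. At the 1776 sites that untreated KO cells held lower on both scales, the median signal was 147 and 121 in KO acetate, 43.9, 45.8 and 52.6 in KO untreated, 166 and 158 in WT acetate, and 159, 134 and 125 in WT untreated. KO acetate overlapped with WT untreated there, and the median log2 difference was -0.04 for KO acetate and -1.50 for KO untreated as deposited, and 0.12 and -0.75 median-scaled. Of the 45 core higher sites, 41 were also called higher in KO untreated on both scales, among them Batf, Cd70, Fhod3, Mitf and 7 sites at Cd4 and Lag3. Of the 57 core lower sites, 57 were also called lower in KO untreated as deposited, as were 89.6% of all sites, and 4 on both scales, among them Rptor and Emsy. Of the 1658 lower sites, 1581 (95.4%) were also called lower in KO untreated as deposited and 82 (4.95%) on both scales. Of the 796 higher ones, 465 (58.4%) were also called higher in KO untreated as deposited, and the same number on both scales.

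At the Th17 effector loci KO acetate was called different from WT untreated at 1 site. Il17a and Il17f encode the signature cytokines, Il23r the receptor that sustains Th17 cells, Il21 a cytokine that amplifies them, and Ccr6 the chemokine receptor that guides them to mucosa. Of the 32 sites at these genes, 0 were higher and 1 was lower in KO acetate (limma, adjusted p under 0.05), beside 7.83% of all sites, with a median log2 difference of -0.17 as deposited and -0.01 median-scaled. In KO untreated 30 of the 32 were lower with a median of -0.84 as deposited, which was also the median of all sites. Il22 had no site in the table. By gene the median difference was 0.29 over the 7 sites of Il17a, -0.13 over the 7 of Il23r, -0.19 over the 4 of Il17f, -0.21 over the 11 of Il21 and -0.67 over the 3 of Ccr6.

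The strongest Il17a site (chr1:20740575-20740775) had signal of 803 and 591 in KO acetate, 690.4, 737 and 847 in KO untreated, 874 and 847 in WT acetate, and 1204, 1140.3 and 800.5 in WT untreated. KO acetate 1 overlapped with WT untreated 4, and the difference of -0.58 did not pass (adjusted p = 0.0516). The Il17a site upstream of it (chr1:20737033-20737233) had signal of 119 and 95.03 in KO acetate, 36.7, 18.7 and 34.3 in KO untreated, 108 and 113 in WT acetate, and 89.9, 89.4 and 57.5 in WT untreated (log2 0.46, adjusted p = 0.388). Here both acetate groups and WT untreated stood well above KO untreated. The gene-end site of Il23r (chr6:67491830-67492030) had signal of 205 and 202 in KO acetate, 64.2, 67.3 and 93.4 in KO untreated, 243 and 254 in WT acetate, and 245, 209 and 179 in WT untreated, a log2 difference of -0.04 (adjusted p = 0.95).

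The single called site of these loci lay near Il21 (chr3:37209643-37209843), at 246 and 187 in KO acetate, 219, 220.4 and 297 in KO untreated, 305 and 218 in WT acetate, and 493, 413 and 318 in WT untreated. It was lower than WT untreated in both KO acetate libraries (log2 -0.90 ± 0.24, adjusted p = 0.00674). The number of lower sites at these loci was 0 without WT untreated 1, without KO acetate 3 or within the ATAC2 libraries, 2 without WT untreated 2 and 5 without WT untreated 4. Within the ATAC2 libraries 1 site, at Il17a (chr1:20714044-20714244), was called higher (log2 1.05, adjusted p = 0.0295). Rora, a nuclear receptor of the Th17 programme, had 1 of 30 sites lower as deposited (-1.03, adjusted p = 0.00933) and 0 median-scaled.

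**Figure D5:**
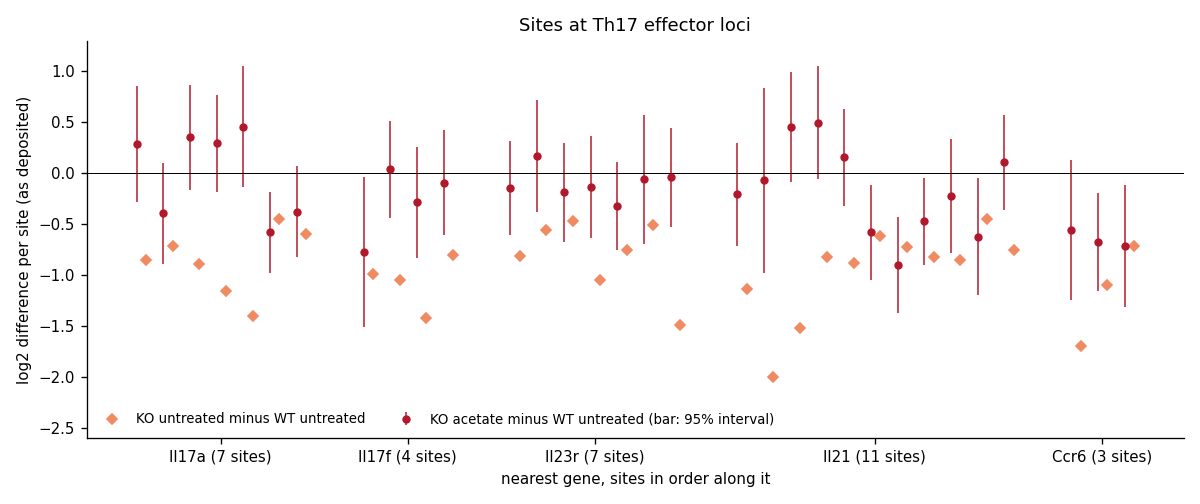
Log2 difference per site as deposited (vertical axis) at 32 sites of Il17a, Il17f, Il23r, Il21 and Ccr6, in order along each gene (horizontal axis). Circles with 95% intervals give KO acetate minus WT untreated, with a median of -0.17, and diamonds give KO untreated minus WT untreated, with a median of -0.84.

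Gene lists of T cell fate were then read against all sites, of which 2.09% were higher and 5.74% lower with a median of -0.17. Counts are as deposited unless stated. The Th17 list had 1 of 182 sites higher (Batf) and 7 lower, among them Il6ra, the interleukin-6 receptor (-0.90), and Hif1a, a hypoxia factor that favours Th17 cells (-0.94). Median-scaled, the adjusted p at Hif1a was 0.05003, just outside the threshold, and 5 sites of the list were lower on both scales. The Th1 list had 3 of 88 sites higher and 2 lower, 1 of these on both scales. Runx3, which supports the Th1 programme, had signal of 444 and 399.7 in KO acetate, 69.1, 107 and 91.0 in KO untreated, 452 and 442 in WT acetate, and 185, 177 and 253 in WT untreated (log2 1.06, adjusted p = 0.00131, and up to 0.0673 without KO acetate 1). Stat4, which transmits interleukin-12 signals, and Cxcr3, a chemokine receptor, were the other higher ones (0.81 and 1.16), and Il18r1 fell (-1.02). In the Th2 list 0 of 54 sites were higher and 3 lower, at Il5 (-1.38), Gata3, the Th2 lineage factor (-0.84), and Il4ra (-0.55). On both scales 2 were lower, the Il4ra site having an adjusted p of 0.104 median-scaled.

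The regulatory T cell list had 1 of 74 sites higher and 10 lower, and its median was -0.31 as deposited and -0.16 median-scaled. The lower members included Lrrc32, which presents latent TGFβ (-1.60), Itgae, an integrin of mucosal T cells (-1.10), Il2ra, the high-affinity interleukin-2 receptor chain (-1.03), and Ctla4, an inhibitory receptor (-1.24). The Il2ra site (chr2:11641338-11641538) had signal of 179.9 and 125 in KO acetate, 159.6, 142 and 162 in KO untreated, 169 and 199 in WT acetate, and 398, 309 and 236 in WT untreated. WT untreated was the highest group there. The 4 calls each fell away without KO acetate 3 or, at Lrrc32, without KO acetate 1, with adjusted p up to 0.234. None of the 4 was called within the ATAC2 libraries, where adjusted p ran from 0.0888 at Lrrc32 to 0.308 at Ctla4. Foxp3, the lineage factor, had 1 site at 33.2 and 43.7 in KO acetate, and at 73.7, 56.3 and 69.7 in WT untreated (-0.78, adjusted p = 0.139).

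Genes of naive and memory T cells had 2 of 329 sites higher and 24 lower, with a median of -0.29 (-0.13 median-scaled). Beside Bcl2 they included Bach2, a repressor that preserves naive cells (-0.998, adjusted p = 0.000243), Foxo1, a factor of quiescence (-1.27, adjusted p = 0.000617), and Ets1 (-0.93, adjusted p = 0.00142). The Bach2 site had signal of 576 and 492 in KO acetate, 695, 774 and 789 in KO untreated, 655 and 619.9 in WT acetate, and 1232, 1012 and 967 in WT untreated, and KO acetate was the lowest group. Without KO acetate 3 the adjusted p was 0.0538 at Bach2 and 0.0579 at Ets1. None of the 17 sites of Tcf7, a factor of naive and memory cells, was called. T cell activation had 5 of 192 sites higher, with Il2 and Fosb (1.14) among them, and 6 lower, with the co-stimulatory receptors Cd28 (-1.04) and Icos (-1.09). Inhibitory receptors had 2 of 67 higher, both at Lag3, and 3 lower, at Tox (-1.75), Ctla4 and Entpd1 (-0.74).

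Metabolic lists were called at 5.08% to 10.3% of their sites, where 7.83% of all sites were. The list of pyruvate dehydrogenase and the TCA cycle had 1 of 68 sites higher, at Suclg2, a succinyl-CoA ligase subunit (1.29), and 6 lower. Among the lower were Pdp1, the phosphatase that activates pyruvate dehydrogenase (-1.33, adjusted p = 0.000479), and Pdk1, the kinase that inactivates it (-0.82, adjusted p = 0.0102). The Pdk1 site had signal of 302 and 294 in KO acetate, 367, 335 and 371 in KO untreated, 415 and 413 in WT acetate, and 598, 471 and 519 in WT untreated. Its call was lost without either KO acetate library or without WT untreated 1 (adjusted p up to 0.167). Pdha1, the catalytic subunit gene of the complex, had 1 site, at 75.9 and 54.3 in KO acetate, 55.4, 43.9 and 68.6 in KO untreated, 52.3 and 66.7 in WT acetate, and 119.9, 89.4 and 113 in WT untreated (-0.72, adjusted p = 0.115). It is not known to lie in a floxed part and does not check the deletion.

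On the route from citrate and acetate to acetyl-CoA, Acly rose at 1 of its 2 sites (chr11:100531325-100531525), at 365 and 279 in KO acetate, 78.4, 122 and 112 in KO untreated, 268 and 332 in WT acetate, and 204, 194 and 176 in WT untreated (log2 0.74, adjusted p = 0.0379). Both acetate groups lay above WT untreated and KO untreated lay below it. Within the ATAC2 libraries the Acly difference was 0.86 with an adjusted p of 0.0536, and it reached 0.392 without KO acetate 1, KO acetate 3 or WT untreated 1. Acss2, the enzyme that activates acetate, had 1 site, at 65.6 and 61.8 in KO acetate, 40.6, 27.1 and 60.3 in KO untreated, 64.6 and 70.2 in WT acetate, and 68.7, 64.3 and 63.0 in WT untreated (-0.03, adjusted p = 0.965). The list that covers fatty acid synthesis, acetyl-CoA and the export of citrate had 1 of 59 sites higher and 2 lower, at the elongases Elovl1 (-1.36) and Elovl6 (-0.69), of which Elovl6 was not called median-scaled (adjusted p = 0.054). Glycolysis had 1 of 73 higher, at Hk1, hexokinase (1.41, and 0.48 with an adjusted p of 0.383 within the ATAC2 libraries). It had 6 lower, with the glucose transporter Slc2a1 (-0.90), Pfkfb3 (-1.55) and Aldoa (-0.93), and 3 of the 6 were lower on both scales. Cholesterol synthesis had 2 of 39 higher, at Pmvk (1.17) and Sqle (1.12), and 1 lower, at Srebf2 (-0.70).

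Among the 107 sites of histone acetyltransferases and deacetylases 1 was higher, at Hdac8 (1.08), and 5 were lower, with Hdac4 at -1.003, and 2 of the 5 were lower on both scales. The apoptosis list had 1 of 95 sites higher and 10 lower, with Bcl2, Cflar, an inhibitor of death receptor signalling (-1.17), and Bcl2l1 (-0.87). The cell cycle list had 1 of 59 higher, at Ccnd1 (1.01), and 1 lower, at Cdk6. The NRF2 list had 2 of 45 higher, with Gclc, the first enzyme of glutathione synthesis (1.20), and 1 lower. The integrated stress response list had 0 of 34 higher and 1 lower, at Ddit4 (-0.88), and the interferon list had 1 of 43 higher, at Ifnar1 (1.00), and 1 lower. On both scales the stress response and interferon lists had 0 called and the NRF2 list 0 lower.

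Interferon-inducible GTPases, a family looked at after Gbp8 had come up among the largest falls, had 1 higher and 7 lower among 35 sites of 11 genes as deposited, where 2.09% and 5.74% of all sites were, and 0 and 6 on both scales, where 2.01% and 4.18% were. The family was chosen by 1 of its own falls, so these counts describe it. Their median was -0.39 as deposited and -0.24 median-scaled. The core Gbp8 site (chr5:105062484-105062684) had signal of 113 and 89.0 in KO acetate, 182, 133 and 277 in KO untreated, 111 and 132 in WT acetate, and 325, 234 and 317 in WT untreated (log2 -1.52, adjusted p = 3.96e-06). A nearby Gbp8 site (chr5:105056606-105056806) had signal of 155 and 122 in KO acetate, 432, 512 and 643 in KO untreated, 123 and 184 in WT acetate, and 241, 283 and 236 in WT untreated. It was lower than WT untreated in KO acetate (-0.87, adjusted p = 0.00964) and higher in KO untreated (1.04, adjusted p = 1.44e-05). The fall in KO acetate was not called in every fit without 1 library (adjusted p up to 0.307). At Irgm2, another member, 1 site was lower (-0.74, adjusted p = 0.0426).

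Of the defining Th17 genes, Il17a, Il17f, Il23r and Ccr6 had sites in the table. Markers of other cell types were read against the 7.83% of all sites that were called. Of the sites near markers of CD8 T cells (9 sites), B cells (21) and myeloid cells (16), 0 were called, with no site in the table for Cd8a, Cd8b1, Ms4a1, Cd79a, Csf1r, Adgre1 or Lyz2. Summed signal over the myeloid marker sites was 3098 to 3765 in KO acetate and 3754 to 4469 in WT untreated, and over the B cell marker sites 1581 to 1964 in KO acetate and 1783 to 2129 in WT untreated. Markers of NK and innate lymphoid cells had 0 of 45 sites higher and 3 lower (1 on both scales), with 9 of 10 markers having a site and summed signal of 8021 to 9538 in KO acetate and 8346 to 10707 in WT untreated. Markers of gamma-delta T cells had 0 of 9 sites higher and 2 lower, both at Cd163l1 (-1.18 at the more certain). The median log2 difference over the 9 sites was nonetheless 0.28 as deposited and 0.43 median-scaled, where all sites had -0.17 and -0.02. Of these markers 4 of 9 had a site, and summed signal was 703 to 820.2 in KO acetate and 859.99 to 971 in WT untreated. Their part in the other results was not tested. Of the 84 sites at CD4 T cell markers, 6 were higher, all at Cd4, and 4 lower, among them Lck, the kinase of the T cell receptor (-0.77), and Cd3e (-0.67).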

How the data were processed

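The deposited table holds signal for 39657 sites on GRCm38, made by the authors by dividing whole reads in a site by 1 factor per library. Every value was a whole multiple of its library's step within 0.001 reads, which gave the depth. The submitters' processing notes name deepTools 3.5.1, DiffBind 3.6.1, DESeq, DESeq2, Genrich, Picard 2.10.9, BWA 0.7.16a and FastQC 0.11.5 but no role for any of them. Libraries were grouped by their labels. WT 4 and KO acetate 3 have numbers found in no sample title, and these columns were placed by group alone. The log2(signal + 1) of all 10 libraries was fitted as 4 group means in R 4.3.3, using limma 3.58.1 with its trend and robust options, with Benjamini-Hochberg adjustment over the whole table. Calls needed an adjusted p under 0.05. With the trend option a site's SE follows its mean signal more than its own scatter. It was 0.246 at Cd101, with WT untreated at 457, 362 and 199, and 0.250 at Mbnl1, at 84.9, 87.4 and 99.5. Adjusted p of named sites are as deposited unless stated, and median scaling moved them either way. At Cd4 it raised 1.74e-34 to 2.0e-09 (chr6:124882242-124882442) and lowered 0.000184 to 2.98e-05 (chr6:124879835-124880035). A log2 difference understates the change of weak sites because of the 1 added. An error after ± is an SD where it follows a signal and an SE where it follows a log2 difference. The scripts were tested on simulated data. For sums, an exact permutation test (two-sided) was used, with Python 3.11.15, scipy 1.17.1, numpy 2.4.6 and pandas 2.3.3, and matplotlib 3.10.9 drew the figures. Genes came from the RefSeq table of GRCm38.p6: 360 of 363 list genes were matched and 295 had a site. A gene end is within 1 kb of either end of a gene. Sites were named by 4 rules: the 10 largest differences per direction called on both scales, with non-overlapping groups, at least the median signal and 1 site per gene; fixed loci; from each list, the called members of smallest adjusted p, 4 at most; and the Cd4 and chromosome 3 regions. The members, lists and rules were chosen with earlier results of these data known. Alternatives covered scaling, pseudocount, filters, column prefix, replicate block and each library left out. Replicate number 1 is the single number that KO acetate and WT untreated share, and the deviations of those libraries correlated at 0.01, so numbers were not taken to pair libraries. A count test was planned for raw counts. It was not run because the deposited values are normalized, although whole reads could be recovered from them. Some genes that these rules picked are not reported here.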

Additional observations from a re-analysis of the deposited data

How the results depend on the processing

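Sites called in KO acetate against WT untreated as deposited (827 higher, 2277 lower) numbered 526 and 390 with the column prefix as a term, 1664 and 1127 under total-signal scaling, and 1734 and 1384 under median-of-ratios scaling. Higher sites were 1699 with cyclic loess and 519 without the weakest 20% of sites, and lower sites were 622 within the ATAC2 libraries. Leaving out 1 library at a time gave 129 to 1396 higher and 435 to 4477 lower. Median-scaled (1601 and 1699), the counts were 142 and 154 in a fit of the 5 libraries alone and 900 and 161 within ATAC2, and ran from 79 to 4118 and from 104 to 4249 without 1 library. On both scales (796 and 1658) they were 137 and 154 with the 5 libraries alone and 525 and 385 with the prefix term, with 160 lower within ATAC2, and ran from 59 to 1392 and from 104 to 4042. With replicate number as a block, lower sites were 4119 as deposited, and median-scaled counts were 3676 higher and 3202 lower, as were 3202 lower on both scales; WT untreated 4 is alone in its block, and the numbers pair nothing. Sites higher in KO untreated that stayed higher (483) were 741 with median-of-ratios factors, 254 with the prefix term and 111 to 691 without 1 library. Those that stayed lower (2151) were 86 median-scaled, 58 with total signal, 48 with median-of-ratios factors, 36 with loess, 355 with the prefix term and 404 to 4288 without 1 library. ATAC2 holds no KO untreated library, so that count has no value there. The Th17 loci had 0 higher and 1 lower, with 1 higher and 0 lower within ATAC2, 0 lower with the prefix term, and 0 higher and 0 to 5 lower without 1 library. The median log2 difference of -0.17 was -0.021 median-scaled, 0.024 with total signal, 0.012 with median-of-ratios factors and 0.017 with loess, and -0.27 to -0.10 without 1 library. The difference in nuclear signal, -1.36 M, ranged from -1.99 to -0.879 M, and that in mitochondrial share, -0.109 percentage points, from -0.200 to 0.0249, turning to 0.0249 without WT untreated 2 and to 0.0742 within ATAC2. The cause of these moves was not tested. Named sites were followed under median scaling, cyclic loess, the ATAC2 libraries alone and each library left out. Of 130 named sites 93 were called and 28 stayed called under all of these, and none turned its direction with a call.

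KO acetate 3 had 94 reads at the median site and KO acetate 1 had 191, so differences at weak sites rest on few reads. With 2 libraries against 3, the exact test of a single value cannot reach 0.05. Acetate, genotype and, for WT untreated 1 and 2, the column prefix change together between the groups and cannot be told apart. A count test was planned and not run.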
